A study of Mus musculus with 8 samples.

Results

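Loss of CD95 was examined in 4T1 tumors grown in Balb/c mice, hosts with an intact immune system, by setting 2 knockout tumors against 2 wild-type tumors. The 4 libraries are those labelled Balb/c host out of 8 in the series. The other 4 came from the same lines in immunodeficient NSG mice and were used here for the shared estimate of spread and for 1 comparison at the end. 4T1 is a mouse mammary carcinoma line of Balb/c origin widely used to study aggressive breast cancer in mice with intact immunity. The wild-type tumors were formed by the parental line and by a line that stably expressed vCas9, and the knockout tumors by CRISPR/Cas9 clones 54 and 69, in which CD95 had been knocked out. All cells were injected into the fat pad of the mouse, tumors were taken within 20 days, and total RNA was purified with a DNase step before Illumina sequencing. The 2 libraries of a group are therefore different lines and not repeats of 1 line. Each knockout is a single clone, whereas the labels call neither wild-type line a clone, so loss of CD95 and derivation from a clone cannot be told apart. The labels do not say whether a library holds 1 tumor or several, nor when each was prepared. P-values therefore measure only the spread between these libraries.

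CD95, encoded by Fas, is a death receptor of the tumor necrosis factor receptor family. On binding its ligand it recruits the adaptor FADD and caspase-8 to start apoptosis, and in many tumor cells it also feeds into NF-kappaB and growth signals. In an immunocompetent mouse a 4T1 tumor is a mixture of carcinoma cells, large numbers of neutrophils and macrophages, vessels, fibroblasts and lymphocytes, and the line is known for driving granulocyte expansion in its host. In such bulk RNA, fewer cells of a type and less RNA per cell cannot be told apart.

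Total counts were 12.6 M in the parental and 15.7 M in the vCas9 tumor, and 19.7 M and 14.4 M in clones 54 and 69, within a range of 8.68 M to 19.7 M over all 8 libraries. Levels are given as CPM, counts scaled to a common library total after TMM correction, on which 3 counts correspond to 0.159 to 0.321 CPM. The targeted gene was read in every tumor. Fas stood at 51.6 and 46.9 CPM in the parental and vCas9 tumors and at 27.1 and 33.7 CPM in clones 54 and 69, a log2 fold change of -0.70 (SE 0.36, adjusted p = 0.225) that did not pass. The edited site is not given in the labels. A count over the whole gene cannot show whether a transcript is functional, nor whether it came from carcinoma or host cells. The share of Fas reads from host cells was not tested, so the knockout rests on the labels. Carcinoma markers were present throughout: Krt8, a keratin of simple epithelia, was at 227 and 628 CPM in wild type and 156 and 1283 CPM in the clones. The keratin level differed more within each group than between the groups.

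The genes that fell in knockout tumors included Itga5, Flnc, Has2, Tead1 and Ereg, and those that rose included Chil3, Cd36, Clec10a and Mfge8. Of 15310 genes tested, 27 passed an adjusted p of 0.05 in edgeR's quasi-likelihood test with Benjamini-Hochberg adjustment, which is 0.176% of them, 20 lower and 7 higher in the knockouts. The adjusted p-values crowded just above that line: the smallest was 0.0441, 4729 genes had an unadjusted p under 0.05, and at an adjusted p under 0.10 there were 1530 higher genes (9.99% of those tested) and 1296 lower ones (8.47%). These last 2 shares are the background against which counts within gene lists are read in this fit. They do not apply to list counts from other fits. DESeq2 gave 1183 higher and 1994 lower genes at 0.10. Far more genes passed 0.10 without clone 69, in both directions, and far fewer without any other Balb/c library. List counts from these fits are given only to show how far they depend on 1 library, not as results about a list. Most of the genes passing 0.10 without the vCas9 tumor or without clone 54 were lower. Without any test, both clones lay above both wild-type lines for 32.9% of genes and below both for 29.3%. A gene is said to have risen or fallen only where it passed 0.05, and one that passed only 0.10 is given with its values. The counts depend on single libraries. With the parental tumor left out, no gene passed either threshold. Without clone 54 or without the vCas9 tumor fewer passed, and most of the 27 genes were no longer among those at 0.05. Without clone 69, the knockout nearer to wild type, more passed, all of the 27 among them. All 27 kept their direction in each of these fits. With the 4 Balb/c libraries fitted alone, so that the NSG libraries lent no estimate of spread, 0 genes passed at 0.05 or at 0.10, the smallest adjusted p was 0.166, and 3468 genes had an unadjusted p under 0.05. Every call that follows therefore rests on the shared estimate of spread and on the parental library. Most of those at 0.05 also rest on the vCas9 tumor and on clone 54.

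Of the 20 genes that fell, 6 are described first, whose products act at the cell surface, at junctions or in the cytoskeleton. This and the other groupings of the 20 were made by hand from known roles and are not a tested theme. Itga5 (chromosome 15, 103344286 to 103366763, protein-coding), the alpha subunit of the fibronectin receptor, stood at 272 and 270 CPM in the parental and vCas9 tumors and at 101 and 108 CPM in clones 54 and 69. Flnc (chromosome 6, 29433256 to 29461883), an actin cross-linking filamin, stood at 167 CPM in both wild-type tumors and at 17.1 and 34.4 CPM in the clones. Tns4, a tensin that links integrins to the cytoskeleton, went from 42.9 and 37.6 CPM to 12.01 and 12.11 CPM. In each of these 3 genes the wild-type tumors lie close together and the clones lie far below it. The log2 fold changes were -1.37 (SE 0.17) for Itga5, -2.70 (SE 0.33) for Flnc and -1.74 (SE 0.19) for Tns4, each at an adjusted p of 0.045. Dcbld2, a transmembrane receptor, fell from 134 and 85.0 CPM to 28.1 and 25.5 CPM, and Mpdz, a scaffold protein of cell junctions, from 23.4 and 21.9 CPM to 8.62 and 9.63 CPM. Add2, which encodes the membrane skeleton protein beta-adducin, had 34 and 76 counts in the wild-type tumors and 4 and 3 counts in the clones, so its fold change (log2 -4.20, SE 0.54) rests on few reads.

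Secreted products, a matrix synthase and a membrane-bound ligand were also among the genes that fell. Has2 (chromosome 15, 56665627 to 56694539), a hyaluronan synthase, was at 64.6 and 77.2 CPM in wild type and 15.61 and 18.96 CPM in clones 54 and 69. Ccn5, a secreted CCN family protein, was at 21.2 and 17.4 CPM against 6.72 and 5.62 CPM. Fst, the activin-binding protein follistatin, was at 34.8 and 19.1 CPM against 6.19 and 5.18 CPM. The parental tumor had the highest Fst level and the vCas9 tumor the highest Has2 level, and neither wild-type library overlapped a clone in any of the 3 genes. Efna5, an ephrin ligand, fell from 11.8 and 13.7 CPM to 3.23 and 4.23 CPM. Ereg, a ligand of the EGF receptor, and Adamtsl3, a matrix protein related to the ADAMTS proteases, fell with log2 fold changes of -3.37 (SE 0.37) and -2.73 (SE 0.36).

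Among transcription factors, Tead1, Glis3 and Bnc1 fell. Tead1 (chromosome 7, 112679318 to 112906807), the DNA-binding partner of YAP and TAZ in the Hippo pathway, stood at 45.0 and 42.3 CPM in wild type and at 9.89 and 14.8 CPM in clones 54 and 69 (log2 -1.83, SE 0.22). Glis3, a Krüppel-like zinc finger factor, had the smallest adjusted p of all genes: 53.4 and 48.9 CPM became 13.5 and 14.7 CPM (log2 -1.86, SE 0.16, adjusted p = 0.0441). Bnc1, a zinc finger protein of epithelia and germ cells, stood at 3.40 and 4.64 CPM against 0.635 and 0.584 CPM. For all 3 factors the clones lay within 1.5-fold of each other. Meg3, an imprinted long non-coding RNA (chromosome 12, 109541001 to 109571726), fell from 106 and 92.2 CPM to 18.5 and 21.6 CPM, and the non-coding 3110039I08Rik by 3.60 on the log2 scale. Their values are uncertain where other transcripts overlap them, because the strand setting of the counting is not given in the sources used here. The remaining members were Phlda1, Prkg2 (a cGMP-dependent protein kinase) and Pcyt1b (an enzyme of phosphatidylcholine synthesis), at log2 fold changes of -1.50, -2.29 and -2.30. Of the 20 genes, 17 had the 2 clones within 1.5-fold of each other, and 13 were above 20 CPM in both wild-type tumors.

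**Figure D1:**
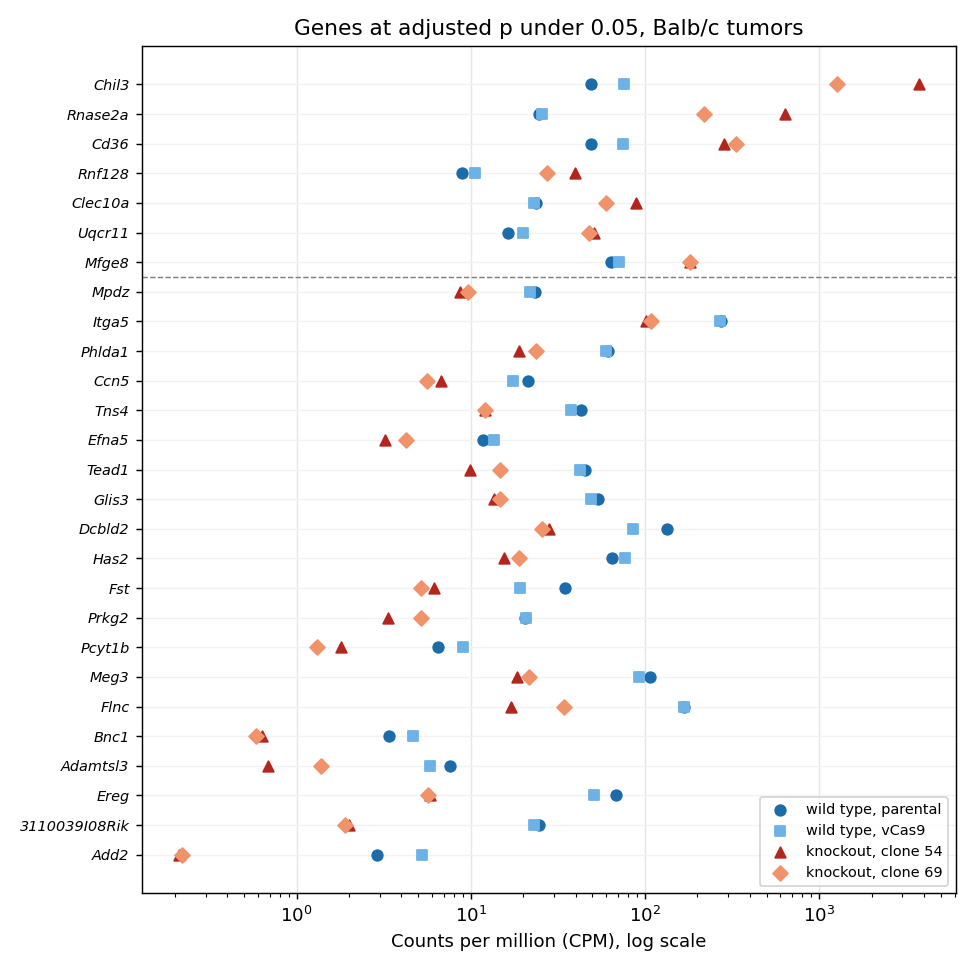
Levels of the 27 genes past an adjusted p of 0.05 in the 4 Balb/c libraries, in CPM on a log axis, with 1 symbol per library and genes ordered by log2 fold change. Above the dashed line are the 7 genes that rose and below it the 20 that fell, and no clone symbol lies within the wild-type range.

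Of the 7 genes that rose, 4 are known macrophage or myeloid products. Clec10a (chromosome 11, 70156197 to 70170834), a galactose-binding lectin of macrophages and dendritic cells, was at 23.8 and 23.0 CPM in the parental and vCas9 tumors and at 89.2 and 59.7 CPM in clones 54 and 69 (log2 1.67, SE 0.22, adjusted p = 0.045). Chil3, a chitinase-like secreted protein, and Rnase2a, a secreted ribonuclease, had the largest increases, with log2 fold changes of 5.33 (SE 0.55) and 4.10 (SE 0.54). Cd36, the fatty acid and oxidised lipoprotein receptor, rose by 2.31 on the log2 scale. Rnase2a belongs to a family of similar genes, so reads could have been split between copies. The other 3 were Mfge8, Uqcr11 and Rnf128. Mfge8 (chromosome 7, 79133768 to 79149060), a secreted bridge between apoptotic cells and phagocytes, was at 63.7 and 71.2 CPM in wild type against 182 CPM in both clones. Uqcr11, a small subunit of respiratory complex III, went from 16.4 and 20.0 CPM to 50.7 and 47.6 CPM, and Rnf128, a ubiquitin ligase of the secretory pathway, from 8.92 and 10.6 CPM to 39.9 and 27.4 CPM. Here 5 of the 7 genes had the clones within 1.5-fold of each other. Chil3 and Rnase2a did not, with clone 54 at 3724 and 640 CPM and clone 69 at 1268 and 220 CPM.

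Clone 54 lay farther from wild type than clone 69 for most genes. Among the 2826 genes with an adjusted p under 0.10, clone 54 lay farther from the wild-type mean than clone 69 in 2397, and among the 27 genes in 18. Over all 15310 genes the same held for 10866, a smaller share than under 0.10 and a larger one than among the 27. A larger deviation of clone 54 was thus common over all genes, and more so among those under 0.10. The clones were also the less alike pair: 513 genes differed by more than 4-fold between them, against 130 between the 2 wild-type tumors, and the correlations of log2 CPM across genes were 0.956 and 0.980. In none of the descriptions below is a difference between clones tested, since a clone is 1 library.

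**Figure D2:**
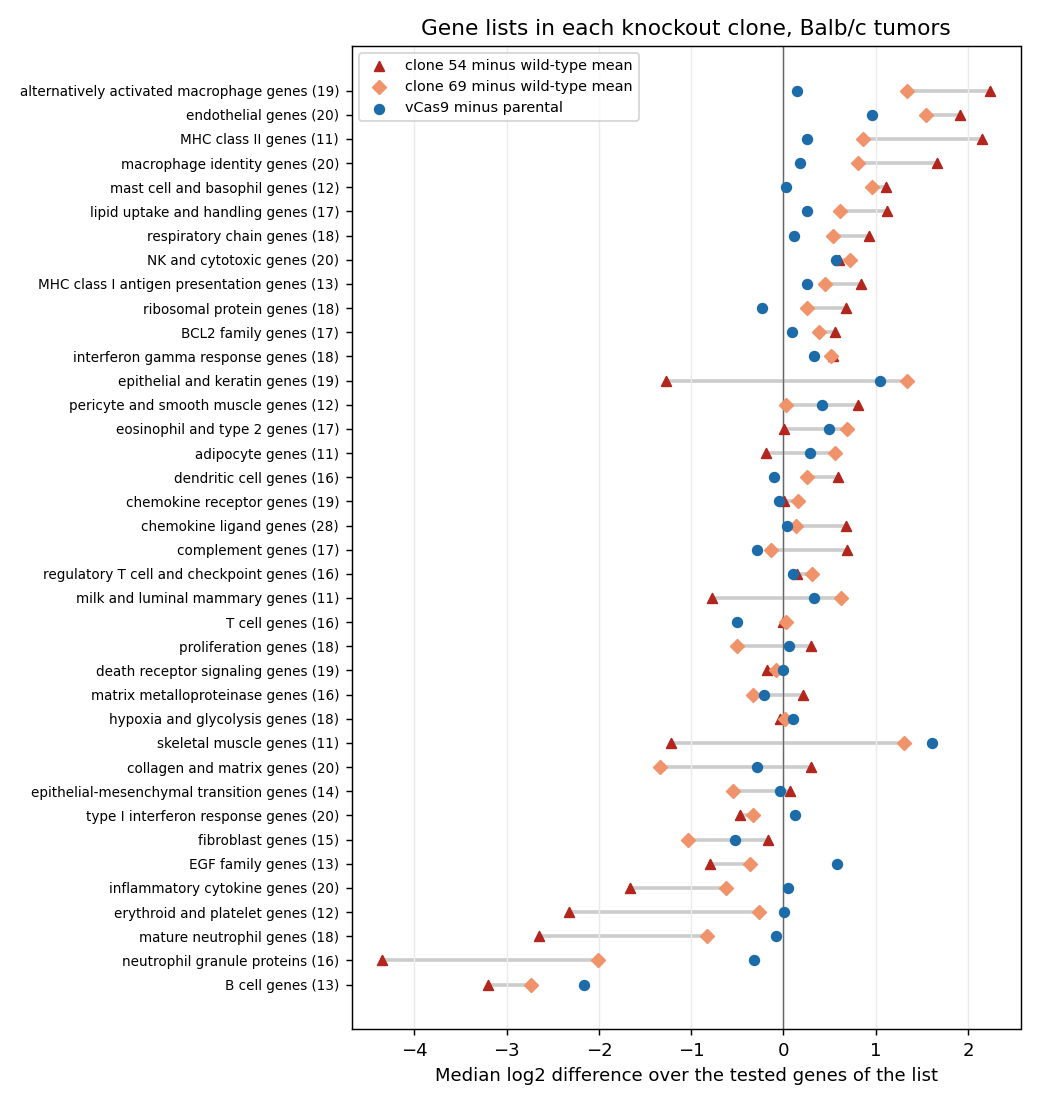
Median log2 difference over the tested members of each gene list with 11 or more of them (number in brackets), for clone 54 and clone 69 against the mean of both wild-type tumors, and for the vCas9 against the parental tumor. Neutrophil granule genes lie at -4.35 and -2.01 in the clones, and the epithelial list at -1.27 in clone 54 and 1.34 in clone 69.

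Neutrophil transcripts were lower in both clones, and most so in clone 54. The list named for granule proteins also holds S100a8, S100a9 and the Stfa genes, whose products lie mainly in the cytosol. Granule proteins proper are made in immature neutrophils in the marrow and stored for killing microbes. Promoters of granule genes are a textbook target of C/EBP factors. The letters TTGCNNAA, searched on both strands, were found in 6 of the 16 list genes that RefSeq's GRCm38.p6 promoter table holds (37.5%). Of all 32851 promoters of the same length, 10.8% held them. Of these, 3 that passed 0.10, each from 250 bases before to 50 bases after the start, are printed to show where the letters lie, with the motif in capitals. A match is a description of letters, not of binding. They are Ngp (chr9:110419558-110419857, plus strand), Mmp8 (chr9:7558179-7558478, plus strand) and S100a9 (chr3:90695672-90695971, minus strand).
Ngp: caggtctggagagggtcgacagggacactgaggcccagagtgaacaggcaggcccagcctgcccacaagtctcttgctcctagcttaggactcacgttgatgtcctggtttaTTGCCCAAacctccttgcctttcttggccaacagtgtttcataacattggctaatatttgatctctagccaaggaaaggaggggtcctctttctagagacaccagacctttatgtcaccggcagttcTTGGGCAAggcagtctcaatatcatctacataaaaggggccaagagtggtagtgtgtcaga
Mmp8: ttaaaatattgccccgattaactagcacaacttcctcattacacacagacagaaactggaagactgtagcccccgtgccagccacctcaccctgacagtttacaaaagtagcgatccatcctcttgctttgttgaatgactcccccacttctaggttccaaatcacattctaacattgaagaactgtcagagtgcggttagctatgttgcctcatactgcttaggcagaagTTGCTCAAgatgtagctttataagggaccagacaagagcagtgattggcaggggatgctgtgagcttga
S100a9: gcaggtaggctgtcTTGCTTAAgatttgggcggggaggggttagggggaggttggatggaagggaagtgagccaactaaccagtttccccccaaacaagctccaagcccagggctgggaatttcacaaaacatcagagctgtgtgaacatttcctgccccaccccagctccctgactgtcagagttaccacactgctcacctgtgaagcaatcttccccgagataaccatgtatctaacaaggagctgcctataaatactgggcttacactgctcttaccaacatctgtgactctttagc
Ngp, a secondary granule protein, was at 161 and 163 CPM in the parental and vCas9 tumors and at 0.317 and 4.67 CPM in clones 54 and 69 (6 and 64 counts). Mmp8, the neutrophil collagenase, was at 131 and 109 CPM against 14.1 and 37.9 CPM, and S100a9, a subunit of calprotectin, at 3713 and 2722 CPM against 147 and 1037 CPM. In all 3 the wild-type tumors lie together and clone 54 is lowest. Their log2 fold changes were -6.10 (SE 0.93, adjusted p = 0.0564), -2.21 (SE 0.45, 0.0564) and -2.44 (SE 0.79, 0.0926). Mpo, the peroxidase of primary granules, was far lower in level, at 3.99 and 2.98 CPM against 0.529 and 0.146 CPM, and Camp, the cathelicidin precursor, had 134 and 202 counts against 0 and 10. Of the 16 list genes tested, 0 passed 0.05, 13 passed 0.10, all lower, and 15 lay below both wild-type tumors in both clones, with a median log2 fold change of -2.99 against 0.06 over all genes. The exception was Mmp9, which macrophages and tumor cells also make and which is named after its values were seen, at 295 and 339 CPM against 358 and 373 CPM. The Stfa genes of the list are near-identical copies whose reads cannot be assigned with certainty. Without the parental tumor 0 of the 16 passed 0.10, without the vCas9 tumor 2, without clone 54 3 and without clone 69 14, while the median stayed between -4.60 and -2.35.

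Genes of mature neutrophils pointed the same way with smaller differences. Of 18 tested, 6 passed 0.10, all lower, 16 lay below both wild-type tumors, and the median was -1.44, between -0.93 without clone 54 and -2.64 without clone 69. Wfdc21, a small secreted antiprotease-like protein, was at 45.1 and 32.4 CPM in wild type against 1.75 and 5.69 CPM. Il1b, the inflammatory cytokine interleukin 1 beta, was at 4039 and 4231 CPM against 752 and 2697 CPM, and Cxcl2, a neutrophil-attracting chemokine, at 3804 and 3513 CPM against 980 and 2338 CPM. Neither of the last 2 passed (adjusted p = 0.19 and 0.176), although both clones lie below both wild-type tumors. Leaving out the parental tumor or clone 54 left 0 of the 18, leaving out the vCas9 tumor 1, and leaving out clone 69 gave 17. DESeq2 called 14 of the 18. Granulocyte colony-stimulating factor, the main growth factor of neutrophils, is encoded by Csf3, which was at 32.9 and 30.5 CPM in wild type and at 4.13 and 8.32 CPM in clones 54 and 69 (log2 -2.36, SE 0.51, adjusted p = 0.0569). Transcripts of red cells and platelets, which share the blood with neutrophils, had 9 of 12 tested genes below both wild-type tumors, 1 higher and 3 lower at 0.10, and a median of -0.92 that was -0.38 without clone 54 and -2.40 without clone 69. With those clones left out 0 and 9 were lower at 0.10. Hbb-bs, a beta globin, was at 1313 and 1191 CPM against 233 and 1082 CPM, so that the low value was that of clone 54. The part of blood content in the neutrophil result was not tested.

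Macrophage transcripts were higher in both clones. Of 20 identity genes tested, 14 passed 0.10, all higher, 17 lay above both wild-type tumors, and the median log2 fold change was 1.31. The factor PU.1 sets the macrophage lineage, and its core letters GAGGAA, searched on both strands, were present in 11 of the 17 promoters of the 14 list genes in the RefSeq table (64.7%), against 28.3% of all promoters. The promoters of C1qb (chr4:136886151-136886450, minus strand), a chain of complement C1q, and Trem2 (chr17:48346151-48346450, plus strand), a lipid-sensing receptor, are shown with those letters in capitals because both genes hold them and passed 0.10.
C1qb: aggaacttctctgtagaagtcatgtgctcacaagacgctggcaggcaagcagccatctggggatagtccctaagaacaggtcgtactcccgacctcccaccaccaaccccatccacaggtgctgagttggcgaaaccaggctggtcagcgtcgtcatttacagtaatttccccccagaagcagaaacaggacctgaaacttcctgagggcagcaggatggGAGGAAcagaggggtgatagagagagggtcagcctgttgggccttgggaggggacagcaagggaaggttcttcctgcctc
Trem2: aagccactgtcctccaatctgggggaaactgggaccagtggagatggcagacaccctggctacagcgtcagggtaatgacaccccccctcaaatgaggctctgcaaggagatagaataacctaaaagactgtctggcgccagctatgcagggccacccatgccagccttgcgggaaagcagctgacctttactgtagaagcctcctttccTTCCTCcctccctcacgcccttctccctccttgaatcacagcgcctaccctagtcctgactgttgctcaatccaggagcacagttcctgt
C1qb was at 155 and 161 CPM in the parental and vCas9 tumors and at 957 and 335 CPM in clones 54 and 69. Trem2 was at 22.17 and 28 CPM against 175 and 61.7 CPM. The wild-type tumors were close to each other in both genes, and clone 54 was the highest. Their log2 fold changes were 2.03 (SE 0.43, adjusted p = 0.0569) and 2.24 (SE 0.44, adjusted p = 0.0564). Lyz2, the lysozyme of myeloid cells, was at 953 and 901 CPM against 5122 and 2506 CPM, and Adgre1, which encodes F4/80, at 245 and 338 CPM against 761 and 631 CPM. Cd14, a lipopolysaccharide co-receptor, went against the list at 1159 and 1206 CPM against 626 and 776 CPM (log2 -0.75, SE 0.28, adjusted p = 0.123), and 1 gene of the list was lower at 0.10 in DESeq2, with median-ratio scaling and with GC and length trends removed. Itgam, an integrin shared with neutrophils, showed no such step, at 1044 and 1265 CPM against 1121 and 1352 CPM. Cd14 and Itgam are named here with their values already known. Monocyte genes did not share the rise: of 9 tested, 1 was higher at 0.10, Chil3, and 3 were lower, Vcan, Ifitm6 and Hp. Their median was -0.63. Of 16 dendritic cell genes tested, 3 were higher and 1 lower at 0.10, with a median of 0.35. Without the parental or the vCas9 tumor 0 of the 20 passed 0.10, without clone 54 1, and without clone 69 17, of which 16 were higher, while the median ranged from 0.70 to 1.67.

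Genes of alternatively activated macrophages, a state induced by interleukins 4 and 13, included 3 of the 7 genes that rose. This list was drawn up with earlier results of these data known, so the overlap is only a description. Of 19 tested, 13 were higher and 1 lower at 0.10, Chil3, Rnase2a and Clec10a also at 0.05, and the median was 1.77. Mgl2, a lectin related to Clec10a, was at 22.5 and 38.9 CPM in wild type and 523 and 143 CPM in clones 54 and 69 (log2 3.44, SE 0.62, adjusted p = 0.0564). Retnla, a resistin-like secreted protein, was at 123 and 94.7 CPM against 986 and 757 CPM. In both genes the lowest clone lies at least 2-fold above the highest wild-type tumor. Ccl8, a monocyte chemokine, was at 213 and 237 CPM against 2946 and 765 CPM. Il13, one of the inducing cytokines, was at 6.03 and 9.56 CPM against 19.3 and 18.3 CPM (log2 1.26, SE 0.37, adjusted p = 0.0766). Of 17 eosinophil and type 2 genes tested, 4 were higher and 1 lower at 0.10, with log2 fold changes above 0 in 11 and below 0 in 6. Their median was 0.4 in the fit, 0.01 in clone 54 and 0.69 in clone 69. Ear1, an eosinophil-associated ribonuclease with near-identical relatives, went against the alternatively activated macrophage list at 5.10 and 9.01 CPM against 1.06 and 1.02 CPM. The letters TTCNNNNGAA, the spacing that STAT6 prefers, were in 2 of 20 promoters of the list (10%) against 6.95% of all promoters. With the parental tumor left out 0 of the list were higher at 0.10, without the vCas9 tumor 1, without clone 54 4 and without clone 69 14.

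Among lipid handling genes, which foamy macrophages and fat cells share, Cd36 alone rose at 0.05. Of the 17 tested, 9 were higher at 0.10, and the median was 1, which was 0.52 without clone 54. Lpl, lipoprotein lipase, was at 48.2 and 51.3 CPM in wild type and 208 and 108 CPM in clones 54 and 69. Fabp4, a fatty acid carrier, was at 34.3 and 81.4 CPM against 198 and 263 CPM and, like Cd36, was higher in clone 69 than in clone 54. The cholesterol exporter Abca1 stood at 1376 and 1374 CPM against 1148 and 1103 CPM and did not pass. Of 11 fat cell genes, 2 were higher at 0.10, Fabp4 and Pparg, which are also members of the lipid handling list. Summed over the list the level of the fat cell genes was 113 and 177 CPM in wild type against 271 and 376 CPM in clones 54 and 69. Of this, Fabp4 alone was 34.3 and 81.4 CPM against 198 and 263 CPM, so the higher sums rest largely on that gene. The median of the fat cell list was 0.39. That median was -0.06 without the parental tumor and -0.27 without clone 69, so the direction of the list rests on those libraries. The part of fat tissue in this result was not tested. With the parental tumor removed 0 lipid handling genes were higher at 0.10, with the vCas9 tumor removed 2, with clone 54 removed 1 and with clone 69 removed 10.

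**Figure D3:**
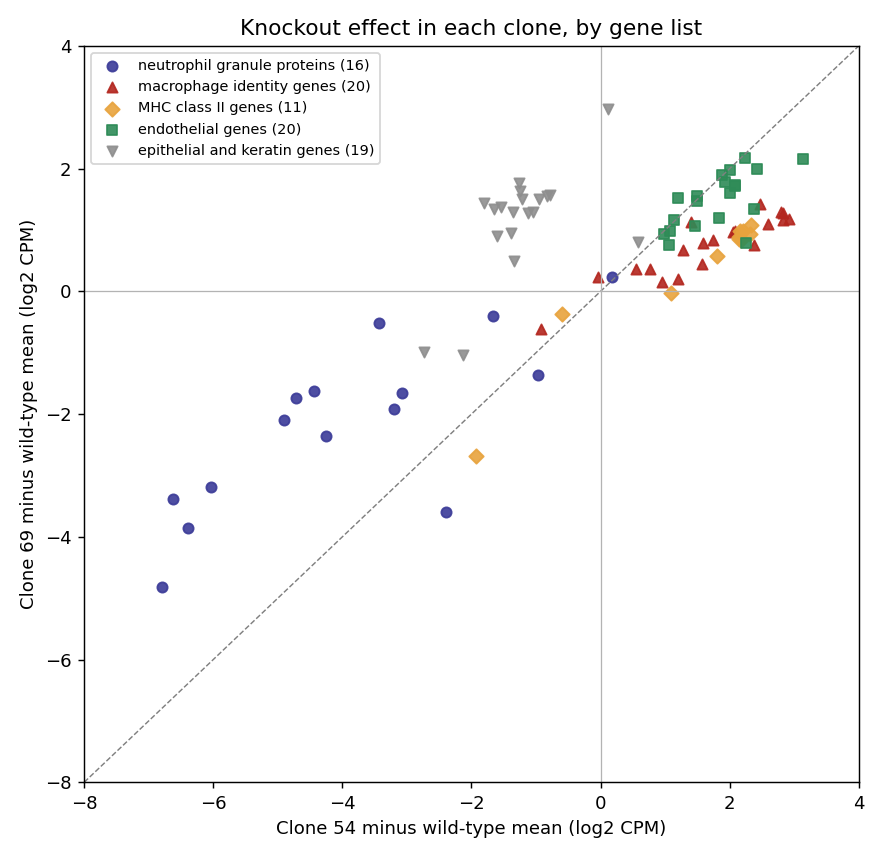
Log2 CPM of clone 54 (horizontal) and of clone 69 (vertical) minus the mean of both wild-type tumors for the tested members of 5 gene lists, with equality dashed. Macrophage, MHC class II and endothelial genes lie mostly in the upper right and neutrophil granule genes in the lower left, whereas most epithelial genes lie in the upper left, lower in clone 54 and higher in clone 69.

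Antigen presentation by MHC class II displays peptides to CD4+ T cells, and 8 of its 11 genes tested were higher at 0.10. Its genes carry a promoter module whose last element is a CCAAT box read in reverse. The letters CCAAT, on either strand, were found in each of the 7 list genes in the RefSeq table and in 7 of their 8 promoters (87.5%), against 37.4% of all promoters. The promoters of H2-Aa (chr17:34287774-34288073, minus strand), H2-Eb1 (chr17:34305617-34305916, plus strand) and H2-DMb1 (chr17:34152941-34153240, plus strand) show them in capitals, beginning 48, 59 and 61 bases before the start, as examples of an alpha chain, a beta chain and a loading factor that hold the letters and passed 0.10.
H2-Aa: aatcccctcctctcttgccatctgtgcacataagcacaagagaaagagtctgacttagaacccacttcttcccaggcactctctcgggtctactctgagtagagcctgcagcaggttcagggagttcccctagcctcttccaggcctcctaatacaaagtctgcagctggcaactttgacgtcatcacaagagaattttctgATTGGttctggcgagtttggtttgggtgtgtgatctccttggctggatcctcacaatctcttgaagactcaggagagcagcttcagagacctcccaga
H2-Eb1: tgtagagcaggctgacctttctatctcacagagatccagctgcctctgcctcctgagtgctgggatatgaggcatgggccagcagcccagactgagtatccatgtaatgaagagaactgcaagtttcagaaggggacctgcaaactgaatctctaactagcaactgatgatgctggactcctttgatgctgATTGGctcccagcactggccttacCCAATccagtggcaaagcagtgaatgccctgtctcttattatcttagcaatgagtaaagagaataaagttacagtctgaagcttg
H2-DMb1: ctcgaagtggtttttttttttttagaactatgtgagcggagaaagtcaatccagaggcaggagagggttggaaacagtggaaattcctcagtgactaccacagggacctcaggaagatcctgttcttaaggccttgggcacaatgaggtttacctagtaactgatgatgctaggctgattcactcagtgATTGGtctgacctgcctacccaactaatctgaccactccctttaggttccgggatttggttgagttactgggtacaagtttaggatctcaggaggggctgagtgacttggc
H2-Aa, an alpha chain, was at 729 and 792 CPM in the parental and vCas9 tumors and at 3353 and 1404 CPM in clones 54 and 69. H2-Eb1, a beta chain, was at 408 and 497 CPM against 2268 and 950 CPM, and H2-DMb1, part of the peptide-loading catalyst, at 28.8 and 47.0 CPM against 185 and 70.8 CPM. The wild-type tumors overlap with neither clone in these genes, and clone 54 is more than 2-fold above clone 69 in each. Their log2 fold changes were 1.65 (SE 0.37), 1.83 (SE 0.38) and 1.75 (SE 0.42), with adjusted p-values of 0.057, 0.0564 and 0.0603. Ciita, the master activator of the class, was at 33.98 and 34.72 CPM against 120 and 50.9 CPM. Of 11 tested, 8 were higher and 1 lower at 0.10 (median 1.65), and 0 passed 0.05. The lower one was H2-Ob, a chain made mainly by B cells, at 35.9 and 8.80 CPM against 4.55 and 2.63 CPM. H2-DMb2, a close copy of H2-DMb1, overlapped between groups, and reads could have been split between the pair. H2-Ob and both H2-DMb genes are named after their values were seen. Without the parental tumor or clone 54 0 of the 11 passed, without the vCas9 tumor 1, which was lower, and without clone 69 10, 9 of them higher, while the median ranged from 0.75 without clone 54 to 2.15 without clone 69.

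MHC class I machinery, used by all cells to present to CD8+ T cells, differed less, with 5 of 13 higher at 0.10, 12 above both wild-type tumors and a median of 0.63, between 0.35 without clone 54 and 0.84 without clone 69. Psmb8, an immunoproteasome subunit, was at 114 and 145 CPM against 281 and 210 CPM (log2 0.93, SE 0.20, adjusted p = 0.0569). B2m, the shared light chain, was at 1382 and 1483 CPM against 3151 and 2243 CPM and did not pass (adjusted p = 0.121). For interferon response genes the lists were described separately, and the difference between them was not tested. Of 18 interferon gamma targets, 5 were higher and 0 lower at 0.10, led by Cxcl9, a T cell chemokine, at 14.01 and 33.68 CPM against 185 and 53.3 CPM. Of 20 type I interferon targets, 0 passed 0.10 and 13 lay below both wild-type tumors, with a median of -0.44. Oas2, an antiviral enzyme of this group, was at 73.1 and 76.7 CPM against 19.2 and 40.6 CPM (adjusted p = 0.109). DESeq2 gave 5 lower type I targets and median-ratio scaling 3, class I genes higher at 0.10 were 2 with GC and length trends removed, and interferon gamma targets were 3 in DESeq2. No member of the 3 lists in this paragraph passed without the parental tumor, without the vCas9 tumor or without clone 54. Without clone 69 there were 9 higher and 1 lower class I genes, 6 and 1 interferon gamma targets, and 0 and 5 type I targets.

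Inflammatory cytokines were lower, the chemokine ligands mixed. Of 20 cytokine and mediator genes, 7 passed 0.10, all lower, 15 lay below both wild-type tumors, and the median was -0.85, between -0.72 without clone 54 and -1.66 without clone 69. Csf2, the granulocyte-macrophage growth factor, was at 17.5 and 14.1 CPM in wild type and 2.38 and 2.55 CPM in clones 54 and 69 (log2 -2.67, SE 0.40, adjusted p = 0.0564). Il6 was at 168 and 120 CPM against 56.97 and 69.88 CPM, and Il12a, a subunit of interleukin 12, at 11.8 and 8.25 CPM against 1.90 and 3.43 CPM. Clones agreed closely for Csf2 and Il6, unlike for the neutrophil genes. Among 28 chemokine ligands 9 were higher and 2 lower at 0.10, with a median of 0.26, between 0.02 without clone 54 and 0.69 without clone 69. Cxcl1, a neutrophil attractant, was at 759 and 574 CPM against 236 and 192 CPM, while Ccl9, a macrophage product, was at 344 and 295 CPM against 901 and 600 CPM. Leaving out the parental tumor removed every one of these calls. Without the vCas9 tumor 1 cytokine gene and 0 chemokine genes passed, without clone 54 0 and 1, and without clone 69 13 and 17, of which 12 chemokine genes were higher. DESeq2 called 11 cytokine genes, all lower.

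Lymphocyte genes gave no common direction. Of 16 T cell genes tested, 0 were higher and 3 lower at 0.10, with a median of 0.04 that was -0.33 without the vCas9 tumor, 0.22 without the parental tumor and -0.05 under median-ratio scaling. The 3 were Cd3e, a chain of the T cell receptor complex, and Lef1 and Tcf7, factors of naive and memory T cells. Lef1 was at 74.5 and 18.2 CPM in the parental and vCas9 tumors and at 5.93 and 6.86 CPM in the clones, so that the parental tumor stood apart from the other 3. Cytotoxic and NK genes had 3 of 20 higher and 0 lower at 0.10 (median 0.66). Ncr1, an NK receptor, was at 3.65 and 5.34 CPM against 13.6 and 8.68 CPM, and Ifng at 3.31 and 6.31 CPM against 17.5 and 12.3 CPM. Gzmb, a granzyme with close relatives, did not differ in mean, at 64.8 and 162 CPM against 81.6 and 145 CPM (log2 0, SE 0.44). Among checkpoint and regulatory T cell genes Pdcd1lg2, a ligand of PD-1 made by macrophages and dendritic cells, stood out at 25.9 and 36.7 CPM against 201 and 68.4 CPM (log2 2.11, SE 0.48, adjusted p = 0.0577), with Tnfrsf9 as the only other one of 16 at 0.10. Of 12 mast cell and basophil genes 3 were higher at 0.10, among them Cpa3, a mast cell protease, at 5.78 and 4.37 CPM against 14.1 and 12.9 CPM. Hdc, the histamine-forming enzyme, which neutrophils also make, went the other way at 1108 and 1098 CPM against 91.6 and 533 CPM (adjusted p = 0.142), and with it the summed level of the list, 1169 CPM in both wild-type tumors against 176 and 634 CPM. Leaving out the parental tumor or clone 54 left 0 genes of these 4 lists, and leaving out the vCas9 tumor left 2, both T cell genes. Leaving out clone 69 gave 3 lower T cell genes, 5 higher and 1 lower NK genes, 1 and 1 checkpoint genes, and 4 and 2 mast cell genes. With GC and length trends removed 0 NK, 1 checkpoint and 1 mast cell gene passed.

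B cell genes were lower in the clones but chiefly high in a single wild-type tumor. Pax5, the factor that fixes B cell identity, had 629 counts in the parental and 115 in the vCas9 tumor, and 4 and 18 counts in clones 54 and 69. Ms4a1, which encodes CD20, was at 35.3 and 7.76 CPM against 1.80 and 2.04 CPM. For both, the parental tumor was more than 4-fold above the vCas9 tumor, which was itself above both clones. Of 13 tested, 9 passed 0.10, all lower, with a median log2 fold change of -3.48. In log2 CPM the median difference of the vCas9 from the parental tumor was -2.16. From the wild-type mean it was -3.20 in clone 54 and -2.74 in clone 69. The casein gene Csn2 had 234 counts in the parental tumor, 28 in the vCas9 tumor and 13 and 4 in the clones, whereas the milk and luminal mammary list it belongs to did not share that order, with summed levels of 188 and 474 CPM in wild type against 175 and 945 CPM. Jchain, of antibody-secreting cells, was at 133 CPM in the parental tumor, 8.11 CPM in the vCas9 tumor and 3.49 and 10.1 CPM in the clones. It was the only one of 7 plasma cell genes at 0.10, and their summed level was 725 and 600 CPM in wild type against 525 and 528 CPM. Of the 5 lymph node stroma genes tested, 3 lay below both wild-type tumors, and their summed level was 244 and 157 CPM against 175 and 121 CPM. The part of adjacent lymphoid or mammary tissue in this result was not tested. Once the parental tumor was left out 0 of the 13 passed and the median was -1.90, without the vCas9 tumor 9, without clone 54 0 and without clone 69 9.

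**Figure D4:**
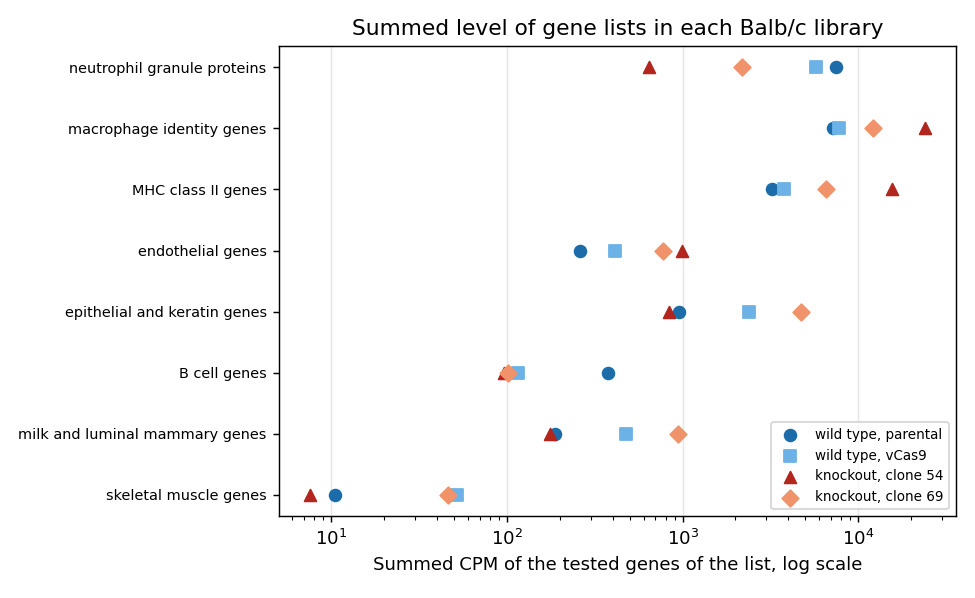
Summed CPM of the tested members of 8 gene lists in each Balb/c library, on a log axis. The parental tumor stands apart for B cell genes at 378 CPM, clone 54 and the parental tumor are low for skeletal muscle genes, and the order of the libraries for epithelial genes is clone 69, vCas9, parental, clone 54.

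Vessel transcripts were higher in both clones. All 20 endothelial genes tested lay above both wild-type tumors in both clones, 14 passed 0.10 and 0 passed 0.05, and the median was 1.65. Plvap, which forms the diaphragms of fenestrated vessels, was at 7.73 and 11.02 CPM in the parental and vCas9 tumors and 82.2 and 41.5 CPM in clones 54 and 69 (log2 2.72, SE 0.49, adjusted p = 0.0564). Cldn5, a tight junction protein of endothelium, was at 1.95 and 6.72 CPM against 17.8 and 17.1 CPM, and Eng, a co-receptor for TGF-beta, at 18.6 and 28 CPM against 63.1 and 48.1 CPM. The parental tumor was the lowest throughout these 3 genes, and the list was 0.96 higher in the vCas9 than in the parental tumor, so the wild-type tumors themselves differed. Pericyte and smooth muscle genes passed in 1 of 12 only: Rgs5 was at 19.6 and 46.3 CPM against 164 and 74.8 CPM. Without the parental tumor or clone 54 0 genes of either list passed, without the vCas9 tumor 1, which was endothelial, and without clone 69 15 endothelial and 4 pericyte genes, and the endothelial median ranged from 1.18 to 2.28.

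The medians of connective tissue and epithelial lists lay apart in the 2 clones, a difference that was not tested. Collagen and matrix genes had a median difference of 0.30 in clone 54 and -1.34 in clone 69, with 1 of 20 higher and 1 lower at 0.10. Col3a1, a fibrillar collagen, was at 7855 and 4845 CPM in wild type and 6080 and 2293 CPM in clones 54 and 69. Col15a1, a basement membrane collagen, was the higher one, at 25.8 and 36.8 CPM against 137 and 59.9 CPM, and Col14a1 the lower one, at 548 and 310 CPM against 202 and 135 CPM. Fibroblast markers were lower in clone 69 (median -1.03) than in clone 54 (-0.17), and 2 of 15 passed, both lower: Cthrc1, a secreted collagen-associated protein, and Fbln1, a fibulin. Both clones lay below both wild-type tumors in 6 of the 15 fibroblast genes and above them in 0, and DESeq2 gave 4 lower. Without the parental or the vCas9 tumor 0 genes of either list passed, and without clone 54 1 of each, both lower. Without clone 69, 3 matrix genes were higher and 1 lower, and 2 fibroblast genes were lower. Epithelial genes went the other way, with a median of -1.27 in clone 54 and 1.34 in clone 69, and the vCas9 tumor 1.05 above the parental one. Their summed level was 955 and 2398 CPM in the parental and vCas9 tumors and 835 and 4702 CPM in clones 54 and 69. Krt19, a simple keratin, was at 54.4, 246, 125 and 905 CPM in the same order. Of 19 epithelial genes, 0 were higher and 1 lower at 0.10, and the median of the fit, 0.45, became -1.42 when clone 69 was left out, with 8 lower genes, and 0 passed without any one of the other 3 tumors. Skeletal muscle genes shared part of that order, with summed levels of 10.5 and 52.1 CPM in wild type against 7.57 and 46.3 CPM in the clones, and 0 of 11 passed. The part of carcinoma cell content and of adjacent muscle in the differences between libraries was not tested.

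The genes with the widest gap between the clones were chosen for that gap and are described without a test. Of genes at 20 CPM or more in the higher clone, Cilp, a cartilage matrix protein, was at 175 CPM in clone 54 and 15.1 CPM in clone 69, with 19.2 and 15.7 CPM in wild type. Thbs4, a thrombospondin of connective tissue, was at 40.2 and 3.28 CPM in the clones against 3.74 and 6.38 CPM. In both genes clone 54 stood alone above the other 3 tumors. In the opposite direction Krt6a, a stress keratin, was at 48.0 CPM in clone 69 and 3.17 CPM in clone 54, with 3.91 and 30.5 CPM in the parental and vCas9 tumors. Il1f9, an interleukin 1 family cytokine, was at 169 and 15.7 CPM in clones 69 and 54 against 408 and 310 CPM in wild type, so that both clones were below wild type and clone 54 more than 10-fold below clone 69. None of these 4 genes passed 0.10 between genotypes. Nts, the neurotensin precursor, was at 20.2 CPM in clone 54 and 1.31 CPM in clone 69, with 1.02 and 0.901 CPM in wild type, and passed 0.10 (adjusted p = 0.0902).

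Respiratory chain genes were higher in both clones. Of 18 nuclear-encoded respiratory chain genes, 15 passed 0.10, all higher, and the median log2 fold change was 0.73, which was 0.44 without clone 54. With GC and length trends removed 8 of them passed, and 0 ribosomal genes. Ndufv1, a catalytic subunit of complex I, was at 28.8 and 31.2 CPM in wild type and 59.1 and 51.3 CPM in clones 54 and 69 (log2 0.88, SE 0.16, adjusted p = 0.0564). Atp5a1, of ATP synthase, was at 286 and 298 CPM against 573 and 424 CPM. Ribosomal protein genes were above both wild-type tumors in 16 of 18, with a median of 0.49 that was 0.16 without clone 54, but 1 passed 0.10, a share below that over all genes. Hypoxia and glycolysis genes had 1 higher and 2 lower of 18 at 0.10, with a median of -0.06. In DESeq2 0 were higher and 5 lower, and with median-ratio scaling 0 and 3. Car9, a carbonic anhydrase induced by low oxygen, was at 11.04 and 16.63 CPM against 6.08 and 4.09 CPM, and Ldha at 733 and 778 CPM against 876 and 871 CPM. Of 18 proliferation genes only Pcna passed (101 and 105 CPM against 198 and 173 CPM), and Mki67 was at 208 and 216 CPM against 177 and 134 CPM. Each of these 4 lists had 0 genes at 0.10 without the parental tumor, without the vCas9 tumor or without clone 54. Without clone 69, 17 respiratory, 14 ribosomal and 2 proliferation genes were higher, and 4 hypoxia genes were higher and 2 lower.

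Fasl, which encodes the ligand of CD95, was at 19.4 and 23.6 CPM in the parental and vCas9 tumors and at 39.3 and 33.99 CPM in clones 54 and 69. Both clones lay above both wild-type tumors, but the difference did not pass (log2 0.77, SE 0.29, adjusted p = 0.125). In death receptor signaling 0 of 19 were higher and 2 lower at 0.10, the lower ones a share near the 8.47% over all genes. The 2 were Cflar and Traf1. Cflar, which encodes the caspase-8 inhibitor c-FLIP, was at 466 and 467 CPM against 235 and 293 CPM (log2 -0.82, SE 0.21, adjusted p = 0.0636), and Traf1 at 163 and 146 CPM against 68.3 and 98.3 CPM. In the BCL2 family the anti-apoptotic Bcl2l1 was at 235 and 245 CPM against 76.7 and 116 CPM, and the pro-apoptotic Bax at 30.5 and 32.5 CPM against 58.7 and 45.9 CPM, within counts of 3 higher and 2 lower of 17. Mcl1 was at 1670 and 1686 CPM against 1630 and 1716 CPM. In the EGF family, besides Ereg, the feedback inhibitor Errfi1 (559 and 467 CPM against 247 and 220 CPM) and the ligand Nrg1 (54.2 and 74.1 CPM against 44.5 and 31.2 CPM) passed 0.10 of 13 genes, all lower. Among regulators of the epithelial-mesenchymal transition Zeb1, a repressor of epithelial genes that fibroblasts also make, was at 231 and 133 CPM against 47.6 and 77.4 CPM (adjusted p = 0.057), and 1 of 14, Itga5, fell. The letters GGAATG, a TEAD site, were searched in the 11 of the 20 genes that fell that the promoter table holds. They were in 2 of these genes, Flnc and Pcyt1b, and in 3 of their 15 promoters (20%), of which 2 are overlapping windows of Flnc, against 14.7% of all promoters. No gene of these lists passed 0.10 without the parental tumor. Without the vCas9 tumor 0 death receptor and BCL2 family genes passed, 1 EGF family and 2 transition genes did, and without clone 54 0, 0, 1 and 1. Without clone 69 the counts of higher and lower genes were 5 and 5 for death receptor signaling, 6 and 2 for the BCL2 family, 0 and 5 for the EGF family, and 2 and 3 for the transition list. DESeq2 called 5 EGF family and 4 transition genes, all lower, and with GC and length trends removed 1 death receptor gene and 1 higher and 1 lower BCL2 family gene passed.

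The same lines in NSG mice, which lack T, B and NK cells, were compared with the Balb/c tumors to ask whether the knockout effect differs between hosts. Of the 20 genes that fell in Balb/c tumors, 11 had a log2 difference below 0 in NSG tumors and 9 above, from -1.43 (Ereg) to 1.67 (Add2). Of the 7 that rose, 5 were below 0 and 2 above, from -1.13 (Clec10a) to 0.30 (Mfge8). None of the 27 passed 0.05 in NSG, where 2 genes did in all. Tead1, at 84.8 and 91.0 CPM in the NSG parental and vCas9 tumors and 87.0 and 109 CPM in NSG clones 54 and 69, had a flat level there. Itga5 had part of the Balb/c difference, at 290 and 327 CPM against 155 and 175 CPM. Tested directly, the difference of the knockout effect between hosts passed 0.05 for 0 of 15310 genes (0%), with a smallest adjusted p of 0.0691, 485 genes under 0.10, 3452 genes at an unadjusted p under 0.05, and 974 past 0.05 in DESeq2. Of the genes called in Balb/c, 16 of the 20 that fell and 6 of the 7 that rose were under 0.10. With a term for each of the 4 lines, all of which were injected into both strains, 0 genes passed, with a smallest adjusted p of 0.246, and 2464 genes had an unadjusted p under 0.05. That fit was chosen after the data were seen and leaves 2 residual degrees of freedom. The 20 genes that fell all had a more negative effect in Balb/c and the 7 that rose a more positive one, a direction that their choice in Balb/c largely fixes, and their adjusted p-values for the difference ran from 0.0691 to 0.266. Without clone 69 the difference passed for 2370 genes, without clone 54 for 1, and without either wild-type tumor for 0.

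**Figure D5:**
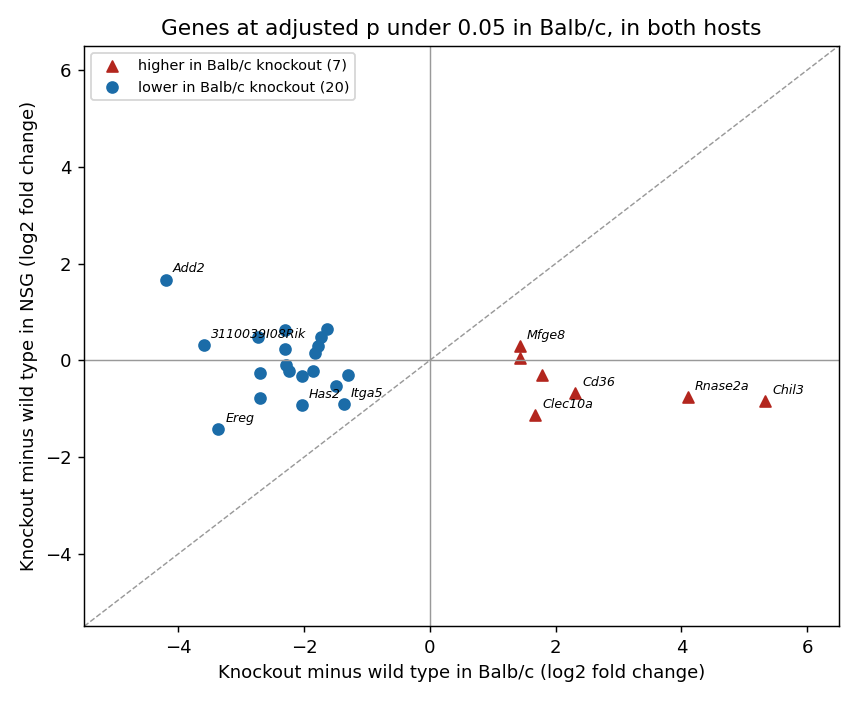
Log2 fold change of knockout against wild type in Balb/c (horizontal) and NSG tumors (vertical) for the 27 genes past 0.05 in Balb/c, with equality dashed. The NSG values lie between -1.43 and 1.67 for genes that span -4.20 to 5.33 in Balb/c.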

How the data were processed

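Bulk tumor RNA was sequenced in 8 libraries. The deposited files hold whole-number read counts per Ensembl gene, made by the authors and not normalized. The submitters' processing notes name cutadapt 1.13, STAR, HTSeq 0.6.1p1, DESeq2 and the builds mm10 and hg19, without their roles. The strand setting and the annotation are not given in the sources used here.

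Of 25006 IDs, 24942 were given symbols and GRCm38 positions from GENCODE M21. Promoters came from RefSeq's GRCm38.p6 table. All 8 libraries, in 4 groups of 2, were fitted together with edgeR 4.0.16 (R 4.3.3; TMM scaling, filterByExpr, quasi-likelihood test, Benjamini-Hochberg adjustment, 4 residual degrees of freedom, biological coefficient of variation 0.244), leaving 15310 genes. The contrast set both knockout against both wild-type Balb/c libraries, and a second set this effect against that in NSG. Fold changes between groups are the log2 values of the fit. Differences of single libraries, and list medians by clone or line, are in log2 CPM with a prior count of 2. The 2 scales differ for genes of low counts. The code was tested on simulated data. A floor of 3 counts covers counting error only.

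The genes and the 42 lists were chosen with earlier results of these data known. Named are genes past 0.05, Fas and Fasl, up to 12 per direction by fold change at an adjusted p under 0.10 with 5 CPM or more and no overlap, up to 4 per list by p and 2 by level, and up to 6 per direction by difference between clones at 20 CPM or more. Genes named outside this rule are marked. Alternatives were DESeq2 1.42.0, limma-voom (limma 3.58.1), 2 other scalings, 2 other filters, thinning, removal of GC and length trends, Balb/c libraries alone, and leaving out each Balb/c library. A fit of the host difference with the cell line as a block was added after seeing the data.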

Additional observations from a re-analysis of the deposited data

How the results depend on the processing

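At an adjusted p of 0.05 the count of 27 genes became 2208 in DESeq2, 94 with median-ratio size factors, 1774 with no filter on low counts, 48 with libraries thinned to the smallest total and 0 with the 4 Balb/c libraries alone, where 3468 genes had an unadjusted p under 0.05. At 0.10 the count of 2826 became 1623 with GC and length trends removed and 0 with the Balb/c libraries alone. The difference between hosts, 0 in edgeR and limma-voom, became 974 in DESeq2 and 674 with no filter. Leaving out 1 Balb/c library gave 0 to 3886 genes at 0.05, 0 to 5771 at 0.10 and 0 to 2370 for the difference between hosts, lowest without the parental tumor and highest without clone 69. The cause was not tested. With median-ratio scaling the median of all genes moved from 0.06 to -0.04, and the share of higher calls at 0.10 from 54.1% to 37.3%, and it was 37.2% in DESeq2 and 39.8% with no filter. With 1 library left out a group holds a lone sample, assumed to vary like the other groups. No paired analysis was possible for the knockout effect because wild-type and knockout tumors share no line. With a replicate block by line, added after seeing the data, the difference between hosts passed for 0 genes. Same-line libraries' deviations from their group means correlated at 0.0875 for the wild-type lines and -0.353 for the clones. At the depth of the thinned libraries 2527 genes passed 0.10.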

Other observations

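Of 16 matrix metalloproteinases tested, 0 passed 0.05, 2 were higher at an adjusted p under 0.10, Mmp12 and Mmp13, and 2 lower, Mmp8 and Mmp3, shares near those over all genes, and the median log2 fold change of -0.04 was -0.45 without clone 54 and 0.20 without clone 69. Mmp12 is the macrophage elastase (log2 2.39, adjusted p = 0.0602) and Mmp3 is stromelysin 1 (log2 -1.58, adjusted p = 0.0564). Without the parental or the vCas9 tumor 0 of the 16 passed, without clone 54 1, which was lower, and without clone 69 6 higher and 3 lower.

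Complement genes had 7 of 17 higher and 0 lower at 0.10, with a median of 0.24. The 3 chains of C1q were among them, and C3ar1, a receptor for a complement fragment, had a log2 fold change of 1.48 (adjusted p = 0.0564). Without the parental tumor, the vCas9 tumor or clone 54 0 passed, and without clone 69 7 were higher and 3 lower. The complement median was 0.69 in clone 54 and -0.14 in clone 69, and the median of the fit turned to -0.29 without clone 54 and -0.03 without the vCas9 tumor. Chemokine receptors had 1 higher and 3 lower of 19. The lower ones were Cxcr5, Ccr6 and Ccr7, receptors of B cells and lymph node homing. Ccr7 was at 184 CPM in the parental tumor, 54.5 CPM in the vCas9 tumor and 38.7 and 36.5 CPM in clones 54 and 69, and Cxcr5 at 34.9, 12.5, 2.06 and 4.23 CPM in the same order. The parental tumor stood highest in both. Cxcr3, of effector T cells, was the higher one at 3.82 and 5.27 CPM against 13.6 and 10.1 CPM. With the parental tumor left out 0 of the 19 passed, without the vCas9 tumor 1 higher and 2 lower, without clone 54 0, and without clone 69 3 higher and 5 lower. DESeq2 gave 2 higher and 7 lower.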
